A study of Schizosaccharomyces pombe with 4 samples.

Results

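In the fission yeast Schizosaccharomyces pombe, the combined effect of losing Clr3 and carrying the IRD2 change was compared with the sum of their separate effects on where newly made histone H3 enters chromatin. All 4 arrays of the series were used, and the members were the 43993 genomic tiles of the array (60 bases, every 50 bases), of which 43934 had no outlier mark on any array. The groups were IRD2 clr3D, IRD2, clr3D and wild type (WT), with 1 array each. The labels also write IRD2 as IR-D2 and do not define it. All cells carried a plasmid with FLAG-tagged H3.2 under a sucrose-induced promoter. They were held in 15 mM hydroxyurea for 4 h in 8% glucose and then moved to 4% sucrose with hydroxyurea for 2 h. DNA precipitated with anti-FLAG was labelled with Cy5 and whole-cell extract DNA with Cy3. The value of a tile is log2 of Cy5 over Cy3 minus the median of its array, called the ratio below, so a high ratio marks DNA rich in new H3 relative to the extract.

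Clr3 is a histone deacetylase that acts with the Clr4 methyltransferase pathway to silence the mating-type region, centromere repeats, chromosome ends and ribosomal DNA, and it limits the turnover of nucleosomes there. The silent mating-type region is bordered by inverted repeats that act as boundaries and bind TFIIIC, the factor that also binds the B box of tRNA genes. Clusters of tRNA genes border centromeric heterochromatin. The histone genes are expressed in S phase, and hydroxyurea holds cells there.

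The interaction was the change made by clr3D in IRD2 cells minus the change made by clr3D with IR intact. It equals the ratio in IRD2 clr3D minus the additive expectation, which is clr3D plus IRD2 minus WT. A value of 0 is additivity on the log2 scale, and a negative value is a double mutant below the expectation. With 1 array per genotype there was no test, and the SD given with a domain or gene is the spread between its tiles and not between cultures. Over 448 pairs of near-identical tiles the interaction had an SD of 0.14 per spot. Within 1 kb bins the means of alternate tiles gave a half-difference SD of 0.035 over 2206 bins. Both cover error within these arrays only. At least 43811 tiles per array were well above background in both channels. The interaction was also computed for each channel alone, and the Cy5 value minus the extract value gives about the interaction of the ratio. Clr3 itself lies outside the tiles, so its deletion was not checked. The IRD2 change was visible in the extract channel: 2 stretches of the contig that carries the mating-type locus lacked extract DNA. They span 19551 to 19760 and 39251 to 39510 in the array's coordinates, and their log2 extract signal differed from WT by -8.49 and -8.64 in IRD2 clr3D, by -8.93 and -9.06 in IRD2 and by -0.64 and -0.52 in clr3D.

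Most of the tiled genome had an interaction near 0. On the arms of chromosome II, which hold most bins, the median change from WT was -0.016 in clr3D and -0.006 in IRD2. Where neither single mutant changes, a value near 0 does not show that effects add. Bins where both single mutants changed are given further below. The interaction had a median of 0.00 and an SD of 0.21 over 2206 bins of 1 kb with at least 3 tiles, and 72.3% of bins lay within 0.2 of additivity. At a size of 0.3, 129 bins lay above the expectation (5.85% of 2206) and 116 below it (5.26%). At a size of 0.5, 1179 tiles lay above (2.68% of 43934) and 1306 below (2.97%). Of the bins below, 61 lay on the arms, out of 1990 there. The share was higher in a few places: all 23 bins of the ribosomal RNA genes, 12 of 22 of the mating-type region on its contig, 5 of 10 of its chromosome II tiles, which share sequence with the contig, and 12 of 51 of the right end of chromosome II. No bin of the ribosomal RNA genes or the mating-type region lay above. Of the bins above, 111 were on the arms and 5 were among the 7 bins of the tRNA clusters at the outer edges of centromere II.

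**Figure D1:**
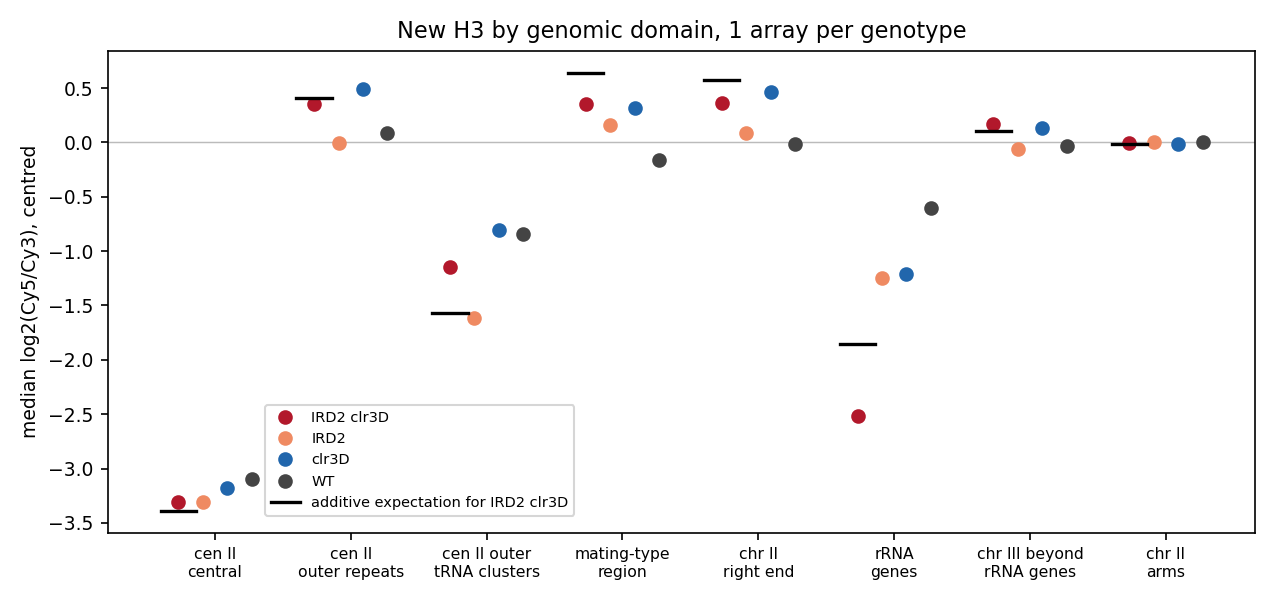
Median ratio of each domain in the 4 genotypes (vertical axis, log2 of Cy5 over Cy3 minus the array median; 1 array per point), with a black bar at the additive expectation for IRD2 clr3D. The double mutant sits below the bar at the ribosomal RNA genes (-2.52 in IRD2 clr3D), in the mating-type region and at the chromosome II end, above it at the outer tRNA clusters, and near it at the outer repeats and the arms.

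The ribosomal RNA genes, read by 460 tiles at the left end of chromosome III (1 to 23120), showed the largest departure of any domain. Their median ratio was -2.52 in IRD2 clr3D, -1.25 in IRD2, -1.21 in clr3D and -0.60 in WT. Both single mutants were lower than WT by a similar amount, and the double mutant was lower than either. The double mutant differed from WT by -1.80, against -1.05 for the sum of the single changes, and the interaction was -0.74 ± 0.26 (SD, n = 460 tiles) with 99.8% of tiles below 0. Loss of Clr3 changed the ratio by -1.20 in IRD2 cells and by -0.49 with IR intact. The Cy5 channel alone gave -0.56 and the extract 0.21. These tiles match many near-identical gene copies, so they report the whole array of repeats, and the number of copies in each strain was not tested beyond the extract values.

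The interaction took a different form in the transcribed units and in the spacers between them. Over the first transcribed unit, which holds the genes of the large-subunit, 5.8S and small-subunit ribosomal RNAs, the ratio was -2.76 in IRD2 clr3D, -1.39 in IRD2, -1.40 in clr3D and -0.74 in WT. The interaction there was -0.73, of which the Cy5 channel gave -0.64 and the extract 0.06. Over the first spacer the ratio was -0.28 in IRD2 clr3D, 0.49 in IRD2, 1.04 in clr3D and 0.75 in WT. There the single mutant clr3D was higher than WT while the double mutant was the lowest of the 4, so loss of Clr3 went with a change of -0.62 in IRD2 cells and 0.25 with IR intact. The spacer interaction was -0.78 (Cy5 -0.45, extract 0.41). The second copy of each gave the same picture with -0.69 for the transcribed unit and -0.77 for the spacer. The tiles of both copies match the same sequences, so this repeats the measurement and is not a second locus.

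Within each spacer the interaction was most negative at the end next to the following large-subunit gene. The bin at 5001 to 6000 had ratios of -1.11 in IRD2 clr3D, 0.05 in IRD2, 0.60 in clr3D and 0.52 in WT, and an interaction of -1.23, the lowest of all 2206 bins. Its counterpart in the second spacer, at 16001 to 17000, had -1.32, -0.13, 0.34 and 0.34 in the same order of genotypes and an interaction of -1.19. The annotated non-coding RNAs SPNCRNA.6668 and SPNCRNA.6675 in the 2 spacers had the lowest interactions of all 2235 genes measured, both -1.06, with -0.45 and -0.35 in Cy5. The double mutant stayed below the other 3 genotypes throughout the 24 bins of the run from 1 to 24000, whose mean interaction was -0.75. Just beyond the repeats the departure ended: the bin at 25001 to 26000 had 0.39 in IRD2 clr3D, -0.21 in IRD2, 0.46 in clr3D and -0.16 in WT, and an interaction of -0.02. There the strains without Clr3 were higher to a like extent in both backgrounds.

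**Figure D2:**
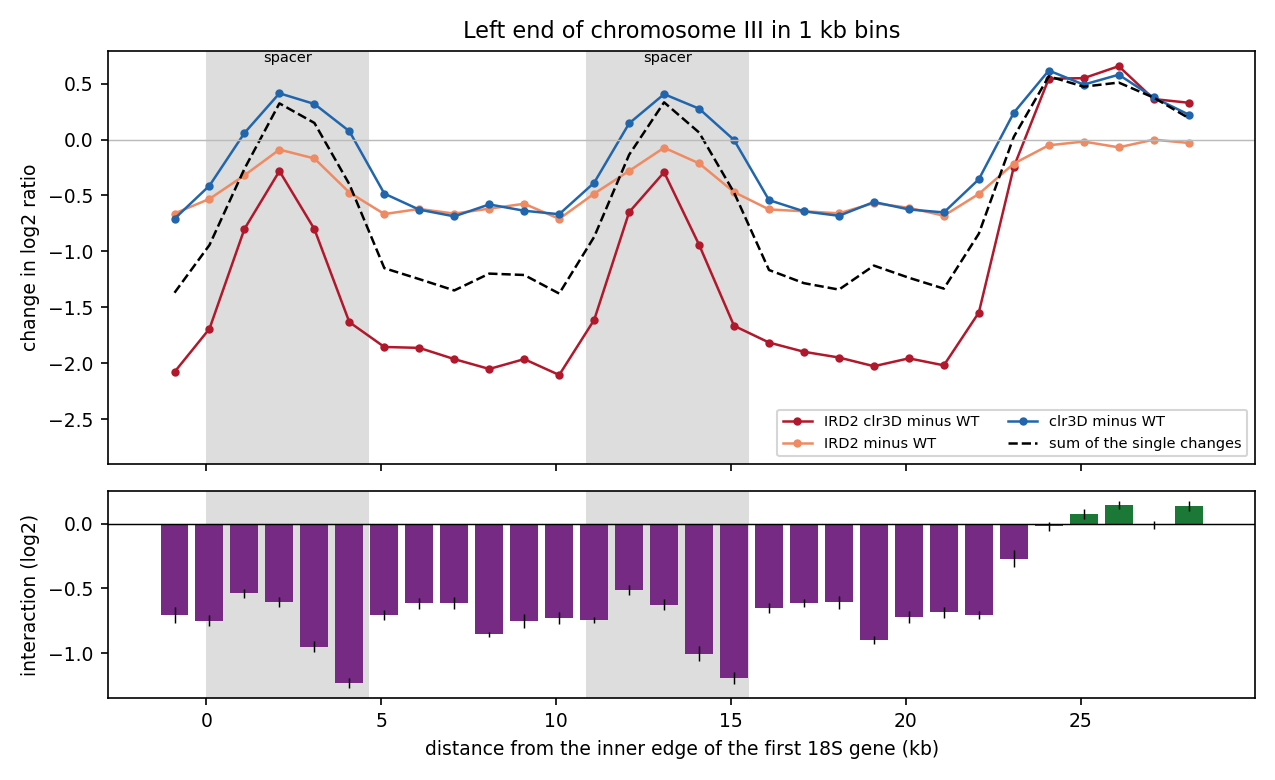
Change from WT in 1 kb bins across the left end of chromosome III (upper axis, log2 ratio; lower axis, interaction with the standard error over tiles) against the distance in kb from the edge of the first small-subunit gene. Grey bands mark the spacers; the double mutant runs below the dashed sum across both repeats, with interactions of -1.23 and -1.19 at the far end of the spacers, and meets it beyond them.

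In the silent mating-type region the ratio of the double mutant rose less above WT than the sum of the single changes. The Cy5 channel alone did not show this shortfall (interaction 0.07 on the contig). Over the 440 tiles of the region on its contig (18701 to 40810) the median ratio was 0.36 in IRD2 clr3D, 0.16 in IRD2, 0.32 in clr3D and -0.16 in WT. All 3 mutants lay above WT, and the double mutant lay close to clr3D. It differed from WT by 0.44, against 0.73 for the sum, and the interaction was -0.27 ± 0.38 (SD, n = 440 tiles), with 80.2% of tiles below 0. Loss of Clr3 changed the ratio by 0.20 in IRD2 cells and by 0.43 with IR intact. Without the lost segments and tiles not well above background the interaction was -0.25. The 196 chromosome II tiles of the region, which share sequence with part of the contig, had medians of 0.18 in IRD2 clr3D, 0.19 in IRD2, 0.09 in clr3D and -0.24 in WT, and an interaction of -0.32. Its run from 2131001 to 2134000 had a mean of -0.61, and -0.47 without the 4 tiles of a lost segment inside it and tiles not well above background.

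The channels did not share this departure equally. On the contig the Cy5 channel alone gave an interaction of 0.07 and the extract gave 0.36, so the ratio fell short of the sum while the precipitated DNA did not. On the chromosome II tiles the values were 0.11 for Cy5 and 0.45 for the extract. In the bin at 25001 to 26000 both channels moved: the ratio was 0.42 in IRD2 clr3D, 0.11 in IRD2, 0.49 in clr3D and -0.56 in WT, with an interaction of -0.74, a Cy5 value of -0.28 and an extract value of 0.47. In that bin the double mutant exceeded WT by 0.98, IRD2 by 0.68 and clr3D by 1.05, so the double mutant was no higher than clr3D alone.

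The shortfall stood where IRD2 alone was higher than WT, a difference that itself enters the interaction. It formed a run of 9 bins from 19001 to 28000 with a mean of -0.53 and a second run of 3 bins from 37001 to 40000 with a mean of -0.48, both holding a lost segment. Without the lost segments and tiles not well above background the means were -0.45 and -0.44. The lowest bin, at 21001 to 22000, had -0.83 with a wide spread of 0.60 between its tiles, and -0.38 over its 11 tiles well above background on all arrays. The neighbouring bin at 22001 to 23000 kept only 7 such tiles, with -0.37. Between the runs the interaction ranged from -0.23 to 0.12. The bin at 31001 to 32000 there had 0.74 in IRD2 clr3D, 0.25 in IRD2, 0.73 in clr3D and 0.35 in WT. In it IRD2 was lower than WT by 0.11, clr3D was higher by 0.38 and the double mutant by 0.39. The mating-type genes themselves, tiled at mat1 and mat3 with shared sequence, had interactions from -0.11 to -0.02, and none passed 0.3.

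**Figure D3:**
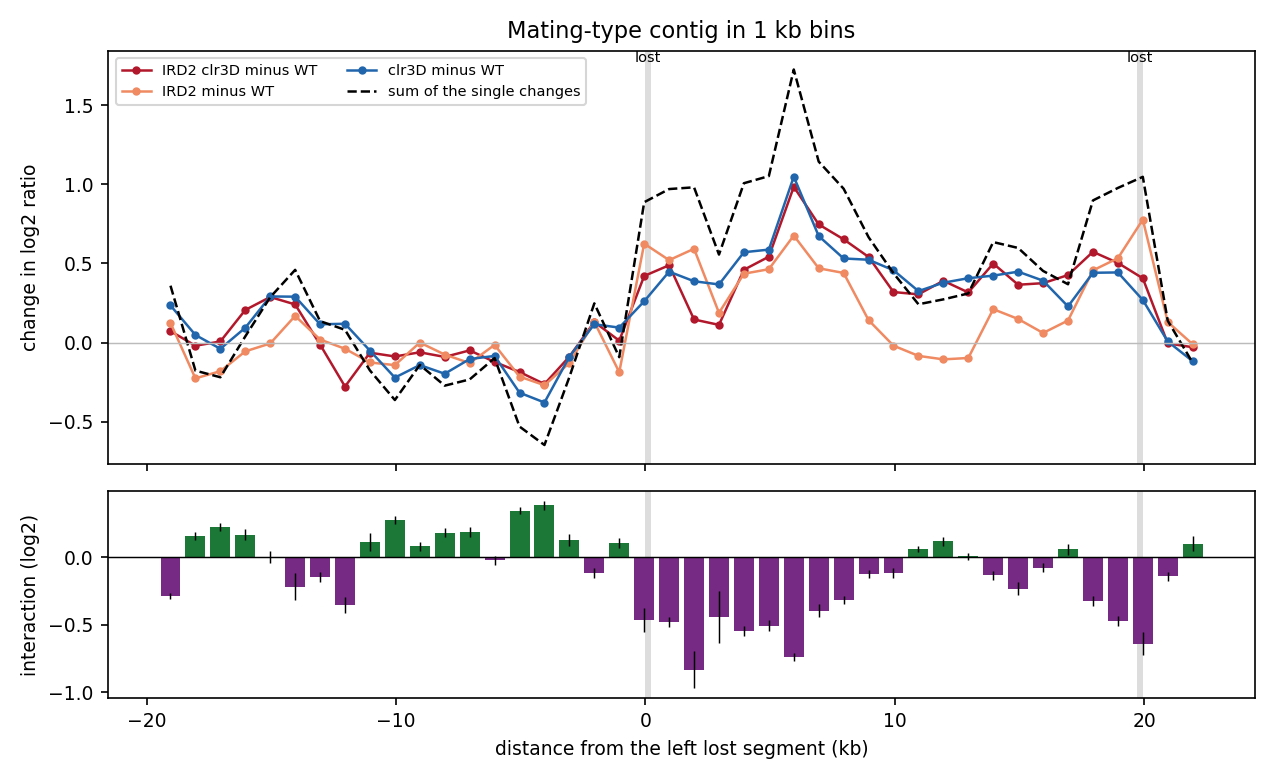
Change from WT in 1 kb bins along the mating-type contig (upper axis, log2 ratio; lower axis, interaction with the standard error over tiles) against distance in kb from the left segment lost in IRD2. Grey bands mark the lost segments. The double mutant stays below the dashed sum over the first 9 kb (mean -0.53) and the last 3 kb (mean -0.48) of the region.

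The right end of chromosome II combined an inner part below additivity with an outer edge above it. Over its 998 tiles the median ratio was 0.36 in IRD2 clr3D, 0.09 in IRD2, 0.47 in clr3D and -0.02 in WT, and the interaction was -0.16 ± 0.30 (SD, n = 998 tiles; Cy5 -0.06, extract 0.10). The direction turned to 0.079 over the 138 tiles that match 1 place only, of which 92 lie in the outermost 10 kb and 46 in the innermost. By 10 kb steps toward the end the interaction over all tiles was -0.29, -0.23, -0.23, -0.05 and 0.23. The tiles matching 1 place gave -0.29 in the innermost step and 0.34 in the outermost, and the steps between hold none. In the innermost step the ratio was -0.05 in IRD2 clr3D, -0.24 in IRD2, 0.02 in clr3D and -0.46 in WT, so both single mutants were above WT and the double mutant was close to clr3D. The outermost 4 bins, from 4538001 to 4542000, had means of -0.55 in IRD2 clr3D, -0.87 in IRD2, -0.26 in clr3D and -0.10 in WT. All mutants were below WT there, and the double mutant was nearer to WT than the sum, with a mean interaction of 0.48.

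Genes of this chromosome end followed the inner part. Of 16 measured, 4 lay below the additive expectation by 0.3 (3.98% of 2235 genes did) and none above (6.58% did), with a median of -0.23 against 0.02 over all genes. SPBPB2B2.16c had 0.18 in IRD2 clr3D, -0.03 in IRD2, 0.55 in clr3D and -0.06 in WT, and an interaction of -0.41 ± 0.18 (SD, n = 29 tiles, all shared with other places). The change made by clr3D was thus smaller in IRD2 cells. By contrast tlh2, a RecQ-type helicase gene of the chromosome ends, had 0.77 in IRD2 clr3D, 0.21 in IRD2, 0.73 in clr3D and 0.21 in WT. Its interaction was 0.04, and IRD2 alone was level with WT there.

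**Figure D4:**
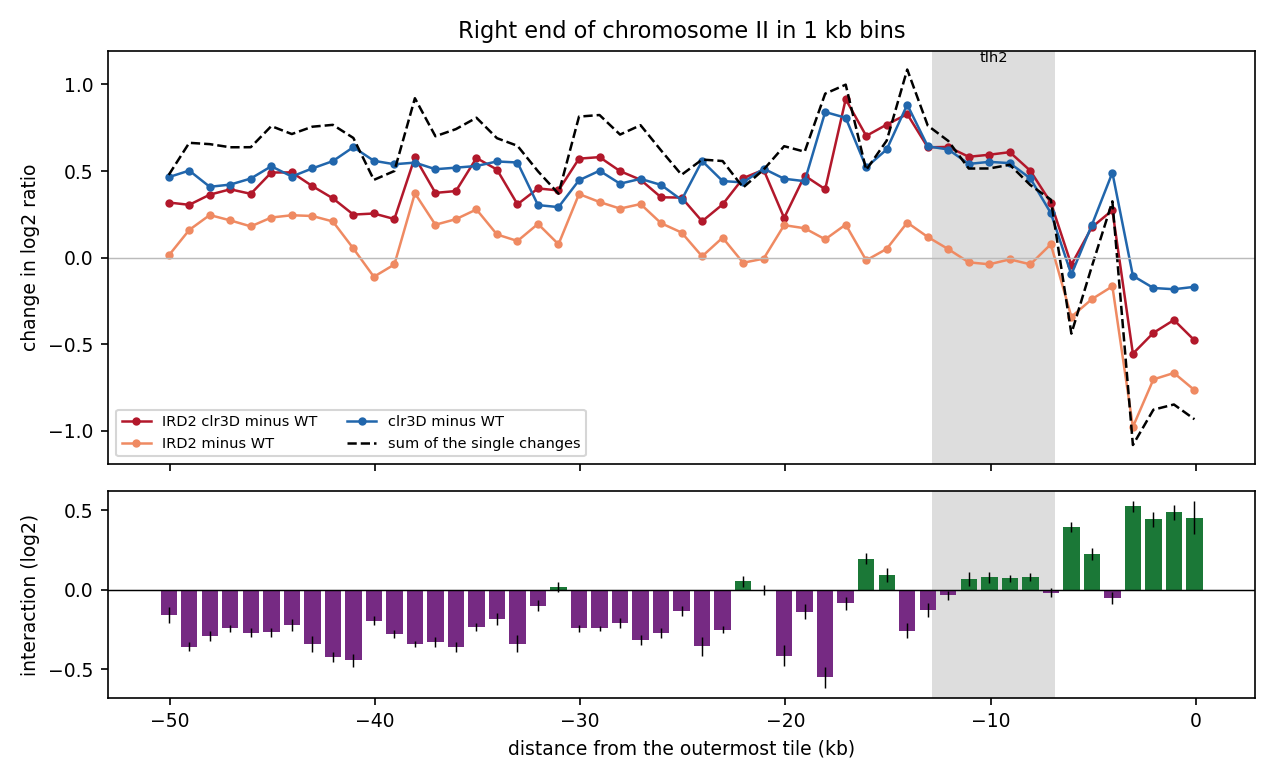
Change from WT in 1 kb bins over the right end of chromosome II (upper axis, log2 ratio; lower axis, interaction with the standard error over tiles) against distance in kb from the outermost tile. The grey band marks tlh2, where the double mutant meets the dashed sum (interaction 0.04); most bins of the inner 30 kb lie below the sum and the outermost 4 bins above it (mean 0.48).

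In centromere II the repeats lay near additivity and the tRNA clusters at the edges did not. The outer repeats (588 tiles) had 0.35 in IRD2 clr3D, -0.00 in IRD2, 0.49 in clr3D and 0.08 in WT. Loss of Clr3 changed them by 0.37 in IRD2 cells and 0.40 with IR intact, and the interaction was -0.02 ± 0.21 (SD, n = 588 tiles). The 275 tiles of the right repeats and 313 of the left gave -0.01 and -0.04. The central domain, where the centromeric H3 variant replaces H3, had -3.31 in IRD2 clr3D, -3.31 in IRD2, -3.18 in clr3D and -3.09 in WT, and an interaction of 0.05 ± 0.40 (SD, n = 197 tiles). This value depended on the processing: it was 0.40 with the arrays scaled to one MAD and -0.11 with normexp. The outer repeats were at 0.19 over tiles that match 1 place only.

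The outer tRNA clusters (158 tiles) had -1.15 in IRD2 clr3D, -1.61 in IRD2, -0.80 in clr3D and -0.84 in WT. Only IRD2 and the double mutant were clearly below WT, and the double mutant was less so. Loss of Clr3 went with a change of 0.47 in IRD2 cells and 0.02 with IR intact, and the interaction was 0.47 ± 0.30 (SD, n = 158 tiles), with 90.5% of tiles above 0. The left cluster gave 0.47 and the right 0.43, over tiles that partly share sequence. Here the sign depended on the channel: the Cy5 value was -0.27 and the extract -0.69. The arms within 5 kb of the clusters had an interaction of 0.24.

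The other stretches lay nearer to additivity. The tRNA genes at the inner edge of the repeats had an interaction of 0.10 (37 tiles), chromosome III beyond the ribosomal RNA genes 0.08 ± 0.28 (SD, n = 537 tiles), the contig outside the mating-type region 0.10 ± 0.28 (SD, n = 381 tiles), the chromosome I piece -0.10 ± 0.18 (SD, n = 99 tiles) and the arms of chromosome II 0.02 ± 0.25 (SD, n = 39745 tiles). On chromosome III the piece around inv1 had 0.24 ± 0.17 (SD, n = 59 tiles) and that around nmt1 0.66 ± 0.21 (SD, n = 39 tiles), the only one of these past 0.3.

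Over the 41 tRNA genes measured, each with 500 bp on either side, 16 lay above the expectation by 0.3 (6.58% of all genes did) and none below (3.98% did), with a median of 0.24 (Cy5 -0.09, extract -0.30). In the centromere it was 14 of 27, with a median of 0.30, and on the arms 2 of 14, with a median of 0.07. The lowest of all 41 was SPBTRNATRP.03 on the arms (-0.25), which is not shown. The 3 genes below include the highest (0.73) and lowest (-0.13) in the centromere, with the B box core GTTCGA (gene strand) in capitals. They are read from the RefSeq sequence of assembly ASM294v3, in which SPBTRNALEU.07 is chrII:1644083-1644183, SPBTRNAGLY.08 chrII:1644675-1644745 and SPBTRNAVAL.06 chrII:1619174-1619256, all on the minus strand.
SPBTRNALEU.07: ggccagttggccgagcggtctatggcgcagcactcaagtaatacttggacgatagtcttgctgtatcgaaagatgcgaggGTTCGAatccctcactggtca
SPBTRNAGLY.08: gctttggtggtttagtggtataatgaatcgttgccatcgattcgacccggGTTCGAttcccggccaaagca
SPBTRNAVAL.06: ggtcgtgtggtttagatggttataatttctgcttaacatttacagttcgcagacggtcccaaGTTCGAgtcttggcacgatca

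SPBTRNALEU.07, a leucine tRNA gene of the right outer cluster, had -1.23 in IRD2 clr3D, -1.86 in IRD2, -1.13 in clr3D and -1.04 in WT, and an interaction of 0.73 (Cy5 -0.09). SPBTRNAGLY.08, its neighbour for glycine tRNA, had -1.26, -1.80, -0.97 and -0.86 in the same order, and 0.66 (Cy5 -0.25). In both the IRD2 array stood lowest and the double mutant came part of the way back. SPBTRNAVAL.06, a valine tRNA gene at the edge of the central domain, had -2.06, -2.13, -1.62 and -1.82, and -0.13, with the double mutant close to IRD2. All 3 hold the core, as do 33 of the 41 measured genes and 76.61% of all 171 tRNA genes in the annotation. Of the 33 with the core 16 lay above the expectation (median 0.29), and of the 8 without it none (median 0.12). The letters of the core were set after these values were known, and the split is a description. Windows of neighbouring genes overlap and share tiles, so they are not independent points.

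Among all annotated genes with at least 3 tiles, 147 lay above the expectation and 89 below. Of protein-coding genes 33 lay above (3.68% of 897) and 22 below (2.45%). The 10 genes with the highest interaction among those whose tiles all lay on one side ranged from 0.73 to 1.07, and the 10 with the lowest from -1.06 to -0.69. Of the lowest, 9 were ribosomal RNA genes or spacer transcripts. The other was SPNCRNA.5135, which overlaps sip1, with -0.55 in IRD2 clr3D, 0.06 in IRD2, -0.13 in clr3D and -0.21 in WT. Its interaction was -0.69, with a Cy5 value of 0.15, an extract value of 0.84 and a ratio value of -0.26 with normexp.

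The highest was SPBC32H8.15 (chromosome II, tiles 1455911 to 1456220), with -0.53 in IRD2 clr3D, -1.46 in IRD2, -0.998 in clr3D and -0.86 in WT. The double mutant was the highest of the 4 although both single mutants were below WT, and the interaction was 1.07 ± 0.15 (SD, n = 6 tiles; Cy5 0.98, extract -0.09). With normexp it was 0.39, and other named genes were then higher. The non-coding RNA SPNCRNA.5193, which overlaps it, gave 1.02, and 0.42 with normexp. SPNCRNA.5102 and the pseudogene SPBC31A8.02 lie in one run of 4 bins, 1266001 to 1270000, whose mean was 0.52. SPBC31A8.02 had -0.42 in IRD2 clr3D, -0.94 in IRD2, -0.47 in clr3D and -0.17 in WT, and 0.83 (Cy5 1.05). SPNCRNA.5102 had -0.63, -1.51, -0.40 and -0.43 in the same order, and 0.86 (Cy5 0.81). In these the Cy5 channel alone carried a value of like size.

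The gene of the small heat shock protein, hsp16 (chromosome II, tiles 2661911 to 2662820), had -1.05 in IRD2 clr3D, -2.67 in IRD2, 0.68 in clr3D and -0.02 in WT. It was the gene with the widest range among those named: IRD2 was far below WT, clr3D above it, and the double mutant between. Loss of Clr3 changed it by 1.63 in IRD2 cells and 0.70 with IR intact, and the interaction was 0.93 ± 0.38 (SD, n = 18 tiles; Cy5 0.26, extract -0.66). Of its 18 tiles 9 were not well above background on every array, and the value was 0.83 without them. It was -0.22 with normexp background correction and 0.06 on raw median signals. The departure of hsp16 from additivity thus depended on the processing, and the cause of this was not tested.

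Of 6 measured heat shock and chaperone genes 2 lay above (3.68% of protein-coding genes did) and none below (2.45% did), with a median of 0.26 against 0.01 over protein-coding genes. Besides hsp16 this was aha1, an Hsp90 co-chaperone, with 0.35 in IRD2 clr3D, -0.01 in IRD2, 0.51 in clr3D and 0.56 in WT. Its interaction was 0.42 ± 0.16 (SD, n = 35 tiles; Cy5 0.38), and only the IRD2 array stood well apart. The bins of aha1 and its neighbour rrb1, a ribosome assembly factor gene, formed one of the 5 longest runs above the expectation (2148001 to 2152000, mean 0.42). mas5, an Hsp40 gene, had an interaction of 0.23, mbf1, a transcription coactivator gene, 0.29, and cdc37, another Hsp90 co-chaperone gene, -0.02.

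Of the 4 measured glycolytic genes 1 lay above and none below, against the same shares of 3.68% and 2.45%. eno101, which encodes enolase, had -0.98 in IRD2 clr3D, -1.68 in IRD2, 0.18 in clr3D and 0.12 in WT. The 2 IRD2 strains were far below the 2 with IR intact, and the double mutant less so, giving 0.64 ± 0.39 (SD, n = 29 tiles). The Cy5 channel alone gave -0.13 and the extract -0.77. The departure was larger before the gene than over it: the bin at 2202001 to 2203000 had -0.39 in IRD2 clr3D, -1.46 in IRD2, -0.19 in clr3D and -0.20 in WT, and 1.06, the highest of all bins, with 0.81 in Cy5. There the double mutant stood much nearer to clr3D and WT than to IRD2. The 4 bins from 2200001 to 2204000 formed a run with a mean of 0.76. fba1, the gene of fructose-bisphosphate aldolase, had -0.92, -1.12, 0.28 and 0.28 in the same order, and 0.20 (Cy5 -0.58). Its tiles lay on both sides of the expectation. The later part of fba1 fell in a run of 2 bins below it, 1691001 to 1693000 (mean -0.34, Cy5 -0.71). tdh1, a glyceraldehyde-3-phosphate dehydrogenase gene, had -0.40, -0.59, 0.49 and 0.16 in the same order, and -0.15. The list's Cy5 median was -0.33, against 0.19 for the ratio. SPNCRNA.5300 at the start of fba1 had -0.63 in IRD2 clr3D, -1.53 in IRD2, -0.19 in clr3D and -0.18 in WT, and 0.91 (Cy5 0.67). With normexp it was 0.16, under 0.3, and SPNCRNA.5299 beside it was 0.23, against 0.83 as reported. SPNCRNA.5300 lies in the run from 1687001 to 1691000, which also holds mug124 (0.48).

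The 250 bases before hsp16, aha1 and eno101 are shown because these are the chaperone and glycolytic genes past 0.3. The core of the heat shock element, GAANNTTC, reads the same on both strands and is in capitals where it occurs. It stands in 9.49% of 5112 such windows of protein-coding genes. The windows come from the RefSeq sequence of ASM294v3 at chrII:2660993-2661242 (minus strand) for hsp16, chrII:2148803-2149052 (plus strand) for aha1 and chrII:2200946-2201195 (plus strand) for eno101.
hsp16: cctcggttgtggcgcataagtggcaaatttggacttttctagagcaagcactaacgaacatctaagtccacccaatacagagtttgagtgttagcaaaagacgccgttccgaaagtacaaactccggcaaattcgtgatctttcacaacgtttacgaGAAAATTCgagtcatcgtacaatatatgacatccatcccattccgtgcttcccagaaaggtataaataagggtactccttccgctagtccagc
aha1: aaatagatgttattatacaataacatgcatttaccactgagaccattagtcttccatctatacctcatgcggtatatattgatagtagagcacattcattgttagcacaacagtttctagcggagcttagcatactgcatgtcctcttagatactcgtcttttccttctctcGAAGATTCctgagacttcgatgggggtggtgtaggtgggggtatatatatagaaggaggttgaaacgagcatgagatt
eno101: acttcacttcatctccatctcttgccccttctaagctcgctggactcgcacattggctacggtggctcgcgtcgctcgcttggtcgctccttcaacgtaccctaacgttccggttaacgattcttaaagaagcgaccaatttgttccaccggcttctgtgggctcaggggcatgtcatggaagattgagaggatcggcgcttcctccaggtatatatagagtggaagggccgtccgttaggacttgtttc

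The windows of hsp16 and aha1 hold 1 match each and that of eno101 none. TGACGT, searched on both strands and present in 5.52% of the windows, was in none of these 3. Of the other measured chaperone genes mas5 (interaction 0.23) also holds the heat shock core, and sks2 (0.14), cdc37 (-0.02) and mbf1 (0.29) do not. The glycolytic genes fba1, pfk1 and tdh1 lack it too. TGACGT stands 2 times before fba1 (0.20) and 1 time before pfk1 (0.17).

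Of 43 protein-coding genes lower by at least 0.2 in both single mutants, the double mutant was less changed than the larger single change in 18, between it and the sum in 25 and beyond the sum in none. For the 15 higher in both, these counts were 10, 5 and 0. The genes were chosen on the same arrays and the WT array enters every difference. The counts are therefore a description, and the part of the WT array in them was not tested. nmt1, the thiamine-repressed gene on chromosome III, had 0.19 in IRD2 clr3D, 0.15 in IRD2, 0.47 in clr3D and 1.19 in WT. The double mutant matched IRD2 alone, and the interaction was 0.75 ± 0.16 (SD, n = 25 tiles; Cy5 0.10, extract -0.65). fmo1, which encodes a flavin-dependent monooxygenase, had 0.21, 0.30, 0.15 and 0.78 in the same order, and 0.53 (Cy5 0.17). isp4, an oligopeptide transporter gene, had 0.30, 0.35, 0.33 and 0.72, and 0.35 (Cy5 0.10). In fmo1 and isp4 all 3 mutants stood at nearly the same level below WT. inv1, the invertase gene whose promoter type also drives the plasmid's histone, had an interaction of 0.23, below the size of 0.3. The placement of the nmt1 and inv1 tiles is uncertain, as described with the processing.

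The histone H3 gene hht2 had 0.90 in IRD2 clr3D, 0.92 in IRD2, 1.05 in clr3D and 1.504 in WT, and the H4 gene hhf2 beside it 0.12, 0.25, 0.37 and 0.79. In both genes the WT array was highest and the double mutant lowest or level with IRD2. Their interactions were 0.43 and 0.30, and pht1, which encodes H2A.Z, had -0.22. The plasmid carries an H3.2 gene, so chromosomal and plasmid DNA cannot be told apart at hht2. Of 25 ribosomal protein genes 3 lay above (3.68% of protein-coding genes did) and none below (2.45% did). Values above 0 were found in 23 of them, against 464 of 897 protein-coding genes, with a median of 0.24 but 0.01 for Cy5. Of 7 replication genes none passed, with a median of 0.14. mcm2, cdc18 and psf2 had 0.20, 0.25 and 0.21, with -0.06, -0.04 and 0.05 in Cy5. The others were psf1 at 0.14, orc2 at 0.01, and orc1 and sld5 at -0.09 each. Of 5 meiotic genes only mug124 passed. The 2 core stress genes, atf1 and gpx1, had 0.05 and 0.12, and the 2 Tf2 retrotransposons -0.09 and -0.10.

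Fewer protein-coding genes lay below the expectation than above it, with a median of -0.35 for those below and 0.35 for those above. By a ranking of coding genes made after the values were seen, tfb5, which encodes a TFIIH subunit, was lowest. It had 0.02 in IRD2 clr3D, 0.50 in IRD2, 0.52 in clr3D and 0.44 in WT, and -0.56 ± 0.29 (SD, n = 13 tiles; Cy5 -0.36). Each single mutant was slightly above WT and only the double mutant was lower. mam1, the transporter that exports the M-factor pheromone, had 0.14, 0.14, 0.35 and -0.05 in the same order, and -0.40 ± 0.16 (SD, n = 81 tiles; Cy5 -0.27). It lies with hbs1 in the run from 2598001 to 2602000, whose mean was -0.41.

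**Figure D5:**
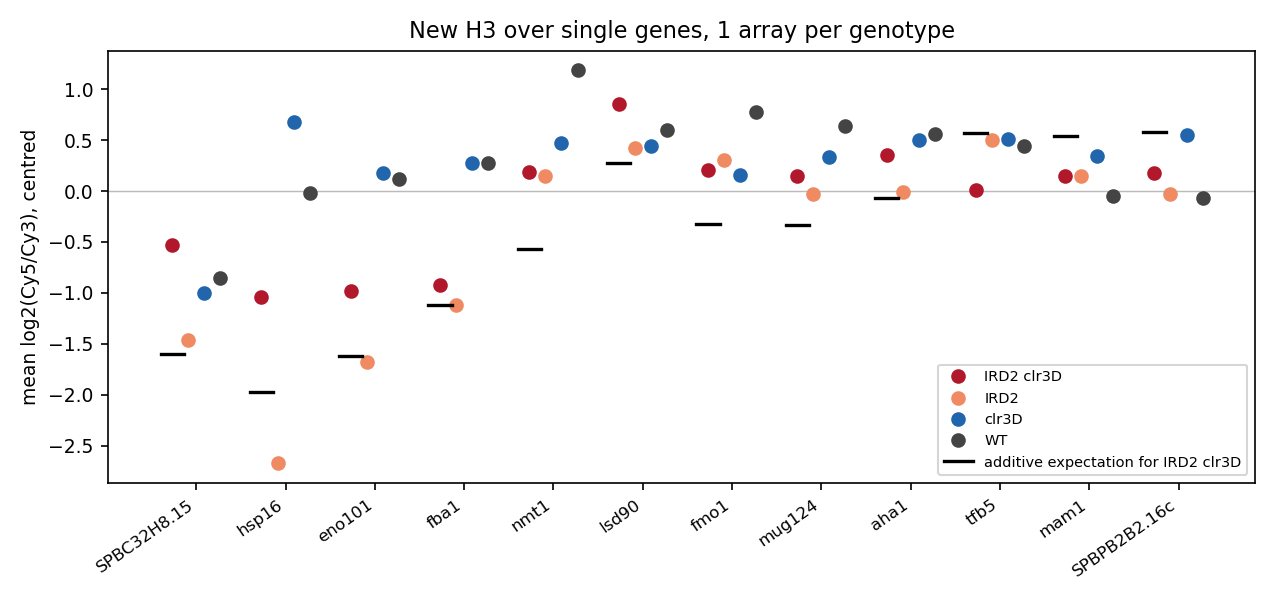
Mean ratio over the tiles of 12 named genes in the 4 genotypes (vertical axis, log2 of Cy5 over Cy3 minus the array median; 1 array per point), with a black bar at the additive expectation for IRD2 clr3D. From SPBC32H8.15 to aha1 the double mutant sits above the bar, by 0.93 in hsp16 and 0.64 in eno101; in tfb5, mam1 and SPBPB2B2.16c it sits below.

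The double mutant was also set against the larger of the 2 single changes, over bins where both single mutants differed from WT by at least 0.2 in the same direction. These bins were chosen on the same arrays, so the counts are a description. Of 85 bins with both higher, the double mutant lay below the larger single change in 43, between it and the sum in 42 and beyond the sum in none. The median difference from WT was 0.41 for the double mutant and 0.63 for the sum. Of 140 bins with both lower, the double mutant was less changed than the larger single mutant in 60, between in 61 and beyond the sum in 19. Those 140 were 114 on the arms, 15 in the ribosomal RNA genes and 11 elsewhere. All 15 in the ribosomal RNA genes were beyond the sum, and their tiles in both copies match the same sequences. The bin that borders them, at 23001 to 24000, was also beyond it (-1.55 against -0.84). These bins thus made up most of the 19.

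The bins in which one single mutant differed from WT by at least 0.3 and the other by less were taken next. In 146 bins lower in IRD2 only, IRD2 changed the ratio by -0.24 in clr3D cells and by -0.41 with Clr3 present. Among them 56 lay above the expectation and 5 below, against 5.85% and 5.26% of all bins. In 98 bins higher in clr3D only, loss of Clr3 changed the ratio by 0.29 in IRD2 cells and by 0.44 with IR intact. Of these 21 lay below the expectation and none above. In 28 bins higher in IRD2 only, 7 lay below and none above. In 30 bins lower in clr3D only, 13 lay above and none below. In each set the median change was smaller in the presence of the other mutation. Picking bins for a large change without that mutation favours this by itself, and the counts with it, so no conclusion is drawn. The WT array enters every one of these differences, and its part in the counts was not tested.

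Over the bins past 0.3 the channels split as follows. These bins were picked by the ratio, which is about Cy5 minus extract. That choice favours Cy5 of the same direction and extract of the opposite one, so the counts are a description. Of the 129 above, 118 had a Cy5 value of the same direction and 40 a Cy5 value of at least 0.3, and in 104 the extract moved the opposite way. Of the 116 below, 92 had Cy5 in the same direction and 30 past 0.3, and in 108 the extract moved the opposite way. The median interaction of the bins below was -0.41, with -0.14 in Cy5 and 0.26 in the extract.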

How the data were processed

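New H3 was measured on 4 Agilent 2-colour tiling arrays (1 per genotype). Per the file headers, they share a slide and a scan, and version 12.0.3.1 of Agilent's Feature Extraction made the deposited spot intensity values. The processed signals are background-subtracted and dye-normalised. The deposited series matrix holds the linear ratio of the same processed signals. From these, log2 of Cy5 over Cy3 was centred on each array's median, with no loess step, because most tiles of a histone ChIP carry signal. Of 43993 tiles, 59 with an outlier mark on any array were left out. Bins of 1000 bp and genes needed 3 tiles; tRNA genes took 500 bp on either side. Calls used an interaction of 0.3 for bins and genes and 0.5 for tiles. Precision is limited by the single array of each genotype, and no test was made.

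The headers name no genome build. Tile positions matched ASM294v3 to within 20 bp when each assembly gap of 100 bp was widened to 1000 bp, except on 2 short pieces. The piece around nmt1 (39 tiles) fitted best 665 bp, and that around inv1 (59 tiles) 640 bp, from the place this rule gives. Those 2 names rest on the rule alone and are uncertain. The genes named were the 10 highest and 10 lowest interactions among genes whose tiles all lay on one side, the 5 longest runs of bins in each direction, and members of the lists. The letters of the B box core were set after a longer consensus had been tried. The members and lists were chosen with earlier results of these data known. Calculations used Python 3.11.15, pandas 2.3.3, BLAST 2.17.0 (places a tile matches) and limma 3.58.1 (normexp and loess alternatives), and were tested on simulated data.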

Additional observations from a re-analysis of the deposited data

Results flagged for a closer look

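In several results the change made by clr3D had one direction in IRD2 cells and the other with IR intact, each at least 0.1 in size; with 1 array per genotype the difference was not tested. In the 2 ribosomal spacers the change was -0.62 and -0.66 in IRD2 cells and 0.25 and 0.24 with IR intact, and the interactions were -0.78 and -0.77. The spacer transcripts SPNCRNA.6668, SPNCRNA.6675, SPNCRNA.6673, SPNCRNA.6667, SPNCRNA.6666 and SPNCRNA.6674 followed, with interactions of -1.06, -1.06, -0.81, -0.79, -0.78 and -0.73. On Cy5 alone these were -0.45, -0.35, -0.28, -0.29, -0.28 and -0.14. The right edge of the mating-type region with its lost segment had a change of -0.28 in IRD2 cells and 0.12 with IR intact, and an interaction of -0.36.

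On the arms the directions were the other way round. SPBC32H8.15 changed by 0.93 in IRD2 cells and -0.14 with IR intact (interaction 1.07, and 0.39 with normexp), and the overlapping SPNCRNA.5193 by 0.91 and -0.10 (1.02, and 0.42 with normexp). SPBC31A8.02 changed by 0.53 in IRD2 cells and -0.31 with IR intact (0.83), and SPNCRNA.5299 at fba1 by 0.70 and -0.13 (0.83, and 0.23 with normexp).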

How the results depend on the processing

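No paired analysis was possible because each genotype has 1 array. Of 266 recomputed values for the comparisons, 198 stayed within the spread between tiles or genes (counts within 1.5 times) and 16 changed sign, 2 of them from a value of at least 0.3 and 14 from a smaller one; the cause of the shifts was not tested. On Cy5 alone the outer tRNA clusters were at -0.27 and the chromosome II tiles of the mating-type region at 0.11, the 2 that had passed 0.3, and the sign also turned for SPBTRNALEU.07 (-0.086) and SPNCRNA.5135 (0.15); hsp16 turned with normexp (-0.22). Of the smaller values, Cy5 alone turned the contig of the mating-type region (0.071), the outer repeats (0.037) and the lists of glycolysis, mating-type, replication, tRNA and meiotic genes (0.004 for the last; the others below); tiles matching 1 place turned the right end (0.079); normexp turned the central domain (-0.11), which scaling to one MAD moved to 0.40. The rest were central domain or outer repeat values within 0.01 of 0 or given below. The ribosomal RNA genes stayed between -0.91 and -0.56 under every alternative run.

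On Cy5 alone there were 42 bins, 865 tiles and 28 genes below; 17 bins with both single mutants higher (4 under the larger single change, 12 between, 1 beyond the sum) and 76 with both lower (23 under, 1 beyond); and list medians of -0.33 for glycolysis, 0.16 for mating-type genes, -0.038 for replication, 0.014 for ribosomal protein genes, -0.086 for tRNA genes and -0.049 for the right end. With normexp, bins numbered 238 above and 178 below, tiles 4153 and 3679, genes 264 and 143; bins with both higher 142 (69 under, 70 between, 3 beyond) and with both lower 221 (117 under); and mating-type genes had -0.22. Loess gave mating-type genes -0.23. Raw median signals gave 1838 tiles above, 1 bin beyond the sum among those higher, and -0.053 for mating-type genes; scaling to one MAD gave 1 such bin. Tiles matching 1 place gave 69 bins below and 0.19 for the outer repeats.

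Bins of 500 bp gave 342 above and 295 below, and bins of 2 kb 44 and 40. A size of 0.2 gave 337 and 273 bins and 335 and 250 genes, and 0.5 gave 25 and 37 bins and 42 and 24 genes. For tiles a size of 1 gave 83 and 152, and 0.3 gave 5244 and 4719. With single changes of 0.1, 282 bins were higher in both (149 under, 120 between, 13 beyond) and 376 lower (210, 136 and 30); with 0.3, 21 were higher (9 under, 12 between) and 50 lower (12 under, 22 between, 16 beyond). Leaving out lost segments and dim tiles was chosen after seeing the data.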
